A study of Mus musculus with 12 samples.

Results

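Adgre1, Csf1r, Cd68, Itgam, Mrc1, Lyz2, Cd163, Ctss, Trem2 and Gpnmb, which are used in mouse tissue as marker genes of macrophages, were followed in whole kidney. They were chosen by name, by a rule that uses no measured value, though with earlier results of these data known. They are 10 of the 27179 genes in the table. Expression was measured by RNA sequencing in TPM, a level of transcripts corrected for transcript length and scaled to the same total in every library, in 12 kidneys of mice 8 to 12 weeks old on a mixed strain background. FAN1KO mice lack Fan1, a nuclease gene of DNA crosslink repair, through a Ggt1-driven Cre recombinase, a driver of the proximal tubule, so the deletion was not aimed at leukocytes. Wild-type and FAN1KO mice were injected intraperitoneally once a week, 5 times, with 2 mg/kg of cisplatin, a drug that crosslinks DNA and injures the proximal tubule, or with saline. Each of the 4 groups formed by genotype and treatment held 3 libraries, 1 a kidney.

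Kidney macrophages derive from embryonic precursors and from circulating monocytes, and they depend on signals through the receptor encoded by Csf1r. Resident cells lie between the tubules, present antigen and clear debris, and monocytes are drawn in after tubule injury. Macrophages that have taken up dying cells and lipid are known to carry a high lysosomal load and to express Trem2 and Gpnmb.

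After cisplatin, kidneys of FAN1KO mice held more RNA of the lysosomal genes Cd68, Lyz2 and Ctss, of the integrin Itgam and of the lipid and injury response genes Trem2 and Gpnmb than FAN1KO kidneys after saline. These 6 of the 9 members tested rose (adjusted p below the threshold of 0.05 in limma's test over 14972 genes), where 34.9% of all tested genes were called higher and 4.9% lower. Between FAN1KO and wild-type kidneys under cisplatin, 2 members were higher, Cd68 and Gpnmb, where 19.6% of all tested genes were called higher and 4.37% lower. In wild-type kidneys 0 members passed between cisplatin and saline, where 0.0601% of all tested genes were called higher. By limma's test 1 member there, Ctss, had an unadjusted p under 0.05, and the count was also 0 with voom on the reads. Between the genotypes under saline 0 of the 9 passed, against 0.768% of all tested genes called either way, with 0 at an unadjusted p under 0.05 and 0 with voom. Csf1r, the most abundant surface receptor of the set, was called in none of these comparisons.

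Of the 10 genes, 9 passed the filter of at least 1 TPM in at least 3 of 12 libraries. Cd163 reached 1 TPM in 0 libraries and was not tested. Gpnmb reached 1 TPM in 3 libraries, all of FAN1KO cisplatin kidneys, so it entered the test only through the group where it was high, and its calls follow in part from that filter. The counts over tested genes are therefore given as a description. RNA of whole kidney was sequenced. A change in the number of macrophages, in RNA per macrophage or in RNA of these genes from other cells therefore cannot be told apart.

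The libraries held 37200280 to 82944934 reads, as inferred from the steps in the TPM, and 1 read in a transcript of 1 kb was worth 0.020 to 0.048 TPM. Fan1 ranged from 1.98 to 3.80 TPM in wild-type saline kidneys, from 1.17 to 2.28 in FAN1KO saline, from 2.33 to 3.57 in wild-type cisplatin and from 1.55 to 3.51 in FAN1KO cisplatin, so its level overlapped between the genotypes under each treatment and did not check the labels. In 1 library of each group, RNA of 4 genes on the Y chromosome, Uty, Kdm5d, Eif2s3y and Ddx3y, was present, at a mean log2(TPM + 1) of 3.46 to 3.93 against at most 0.10 in the other 8. Those 4 were library 3 of wild-type saline and of FAN1KO cisplatin, and library 1 of FAN1KO saline and of wild-type cisplatin. Hba-a1, a haemoglobin gene of red cells, lay at 110 to 1537 TPM in the first 3 groups and at 7.29 ± 9.28 TPM (SD, n = 3) in FAN1KO cisplatin kidneys, so RNA of blood moved with the main comparison, and its part in the results was not tested. With libraries rescaled by their median ratio, the median difference of all genes between FAN1KO and wild-type under cisplatin went from 0.24 to -0.01 on the log2 scale, and 1389 genes were called higher and 1155 lower in place of 2931 and 654. For cisplatin against saline in FAN1KO the same median went from 0.37 to -0.01, with 2333 genes higher and 2047 lower in place of 5229 and 733.

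Per length, Lyz2 had the highest level of the 10 over all libraries, with a mean of 54.2 TPM over the 12 libraries, ahead of Csf1r at 31.0, Ctss at 21.9 and Cd68 at 10.9. The order of the first pair by mean depended on the group. Csf1r was above Lyz2 under saline, with means of 37.6 against 27.4 TPM in wild-type and 26.5 against 18.6 TPM in FAN1KO kidneys, and below it under cisplatin, with 33.5 against 69.1 TPM and 26.3 against 102 TPM. Some libraries went the other way. Lyz2 was above Csf1r in wild-type saline 2 (38.0 against 37.6 TPM) and FAN1KO saline 3 (18.7 against 17.1 TPM). Csf1r was above Lyz2 in wild-type cisplatin 1 (25.5 against 23.7 TPM). Trem2 at 2.58, Adgre1 at 1.71, Mrc1 at 1.64 and Itgam at 1.47 formed a lower tier whose ranges overlapped, and Gpnmb at 0.774 and Cd163 at 0.231 were the least abundant. In reads, Cd163 rested on 8 to 63 and Trem2 on 4 to 290 a library, whereas Csf1r rested on 1660 to 5987.

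**Figure D1:**
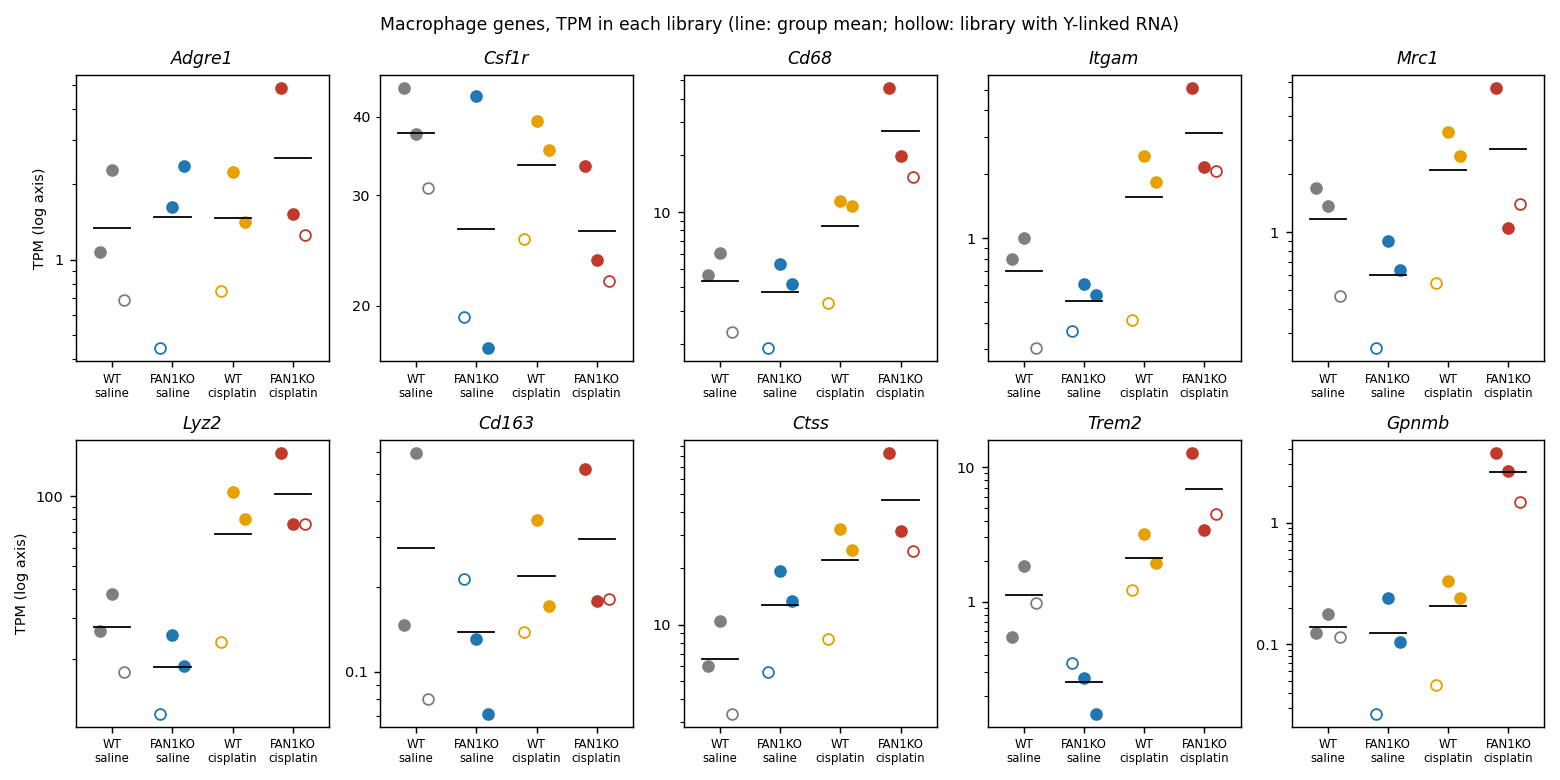
Level of each of the 10 macrophage genes in TPM, on a log axis, in each of the 12 libraries by group, with a line at the group mean and hollow points for the 4 libraries with Y-linked RNA. Cd68, Trem2 and Gpnmb show all 3 FAN1KO cisplatin libraries above all 3 wild-type cisplatin libraries, whereas Csf1r is no higher in the cisplatin groups than in the saline groups.

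RefSeq (GRCm38.p6) gave a promoter window for 8 of the 10 genes. In the 250 bases before the start, the purine-rich core GAGGAA of PU.1, the transcription factor of the myeloid lineage, was present on either strand in 5 of 8, Mrc1, Ctss, Itgam, Cd68 and Trem2, where 23.3% of 32851 promoters hold it. The AP-1 motif TGANTCA was present in 2 of 8, Cd68 and Trem2, where 6.75% of promoters hold it. The C/EBP-like motif TTGCNNAA was found in 1 of 8, Cd68, against 9.56% of promoters, and the E-box core CACGTG in 0 of 8, against 6.02%. In the 3 windows below no match overlapped another, and a match is a description and not a binding site. Shown are the windows of Cd68 and Trem2, the members that hold both motifs and whose FAN1KO cisplatin libraries lay above the wild-type ones, and of Itgam, the member nearest to the average of the set. Each reads 5′ to 3′ on the gene's strand, and capitals mark GAGGAA or its complement TTCCTC, and TGANTCA. They lie at chr11:69666171-69666420 on the minus strand for Cd68, at chr17:48346151-48346400 on the plus strand for Trem2 and at chr7:128062390-128062639 on the plus strand for Itgam.
Cd68: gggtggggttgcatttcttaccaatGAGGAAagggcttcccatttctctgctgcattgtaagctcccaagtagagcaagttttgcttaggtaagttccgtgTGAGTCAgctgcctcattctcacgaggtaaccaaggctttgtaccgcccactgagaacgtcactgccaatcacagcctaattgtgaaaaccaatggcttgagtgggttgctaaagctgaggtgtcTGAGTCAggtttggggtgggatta
Trem2: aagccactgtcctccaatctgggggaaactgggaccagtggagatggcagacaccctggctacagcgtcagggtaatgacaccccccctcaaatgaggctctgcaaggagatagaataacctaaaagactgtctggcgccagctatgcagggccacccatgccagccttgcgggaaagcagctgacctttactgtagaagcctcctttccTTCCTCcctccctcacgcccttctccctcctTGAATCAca
Itgam: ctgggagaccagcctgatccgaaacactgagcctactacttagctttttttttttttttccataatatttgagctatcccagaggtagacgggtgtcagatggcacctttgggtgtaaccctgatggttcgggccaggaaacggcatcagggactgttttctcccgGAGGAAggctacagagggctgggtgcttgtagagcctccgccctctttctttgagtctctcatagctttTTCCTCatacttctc

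The lysosomal members are Cd68, Lyz2 and Ctss. Cd68 (NCBI Gene 12514, chromosome 11, 69664213 to 69666170) encodes a glycoprotein of the lysosomal membrane. Under saline it measured 4.62, 6.09 and 2.32 TPM in wild-type libraries 1, 2 and 3 and 1.90, 5.32 and 4.17 TPM in FAN1KO libraries. Under cisplatin the wild-type libraries held 3.31, 11.4 and 10.7 TPM and the FAN1KO libraries 45.7, 19.9 and 15.3 TPM. All 3 FAN1KO cisplatin kidneys thus lay above all 9 others. The difference between FAN1KO and wild-type under cisplatin was 1.56 ± 0.51 (SE) in log2(TPM + 1), with an adjusted p of 0.0499, and it passed in 8 of 24 settings. The call was lost in 9 of the 12 fits that left out 1 library and held only without wild-type saline 3, FAN1KO saline 1 or FAN1KO cisplatin 3. The difference was 1.11 (adjusted p = 0.20) without FAN1KO cisplatin library 1 and 1.06 (adjusted p = 0.18) without wild-type cisplatin library 1. Between cisplatin and saline in FAN1KO the difference was 2.47 ± 0.51, with an adjusted p of 0.00436, and that call held in 24 of 24 settings.

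Lyz2 (NCBI Gene 17105, chromosome 10, 117277541 to 117282272) encodes the lysozyme of myeloid cells. It measured 26.5, 38.0 and 17.7 TPM in wild-type saline, 11.7, 25.3 and 18.7 in FAN1KO saline, 23.7, 104 and 79.9 in wild-type cisplatin and 153, 76.3 and 75.9 in FAN1KO cisplatin kidneys. FAN1KO libraries after cisplatin lay at least as high as 75.9 TPM, above every saline library, but 2 of the 3 wild-type cisplatin libraries lay in the same range. The rise in FAN1KO after cisplatin was 2.37 ± 0.52 in log2(TPM + 1), with an adjusted p of 0.00571. Under cisplatin the genotypes differed by 0.71 ± 0.52, with an adjusted p of 0.35 and a 95% interval of -0.44 to 1.86.

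Ctss (NCBI Gene 13040, chromosome 3, 95526786 to 95556405), which overlaps the pseudogene Hmgb1-ps5, encodes cathepsin S, a protease that trims the class II invariant chain before antigen is loaded. Its saline values were 5.98, 10.4 and 3.34 TPM in wild-type and 5.56, 19.2 and 13.3 TPM in FAN1KO kidneys. After cisplatin it reached 8.34, 32.6 and 25.1 TPM in wild-type and 83.0, 31.6 and 24.7 TPM in FAN1KO kidneys. In FAN1KO all cisplatin libraries exceeded all saline libraries, in wild-type 2 of 3 did, and the cisplatin groups overlapped each other. In FAN1KO the rise was 1.74 ± 0.62 in log2(TPM + 1), with an adjusted p of 0.0447, and it passed in 12 of 24 settings. Without FAN1KO cisplatin library 1 it was 1.22, with an adjusted p of 0.18, and without FAN1KO saline library 1 it was 1.28, with an adjusted p of 0.16. Leaving out FAN1KO saline 3, FAN1KO cisplatin 2, wild-type saline 1 or wild-type cisplatin 3 also lost the call, with adjusted p-values of 0.0562 to 0.0747. In wild-type kidneys the difference was 1.52 ± 0.62, with an unadjusted p of 0.0315 that adjustment over all genes took to 1.00.

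Trem2 and Gpnmb are the lipid and injury response genes of the set. Trem2 (NCBI Gene 83433, chromosome 17, 48346401 to 48352276) encodes a lipid-sensing receptor of macrophages and microglia. Saline libraries held 0.546, 1.83 and 0.972 TPM in wild-type and 0.346, 0.269 and 0.147 TPM in FAN1KO. Cisplatin libraries held 1.22, 3.16 and 1.94 TPM in wild-type and 12.7, 3.40 and 4.44 TPM in FAN1KO. FAN1KO kidneys were thus below wild-type kidneys under saline, without overlap, and above them under cisplatin, where the lowest FAN1KO library (3.40 TPM) was close to the highest wild-type library (3.16 TPM). The rise with cisplatin in FAN1KO was 2.46 ± 0.40 in log2(TPM + 1), with an adjusted p of 0.00134, and it held in 24 of 24 settings. Under cisplatin the genotypes differed by 1.20 ± 0.40, with an adjusted p of 0.0533, and that difference passed in 3 of 24 settings, among them the fits without wild-type cisplatin 2 (1.43, adjusted p = 0.0485) and without FAN1KO cisplatin 2 (1.52, adjusted p = 0.0408). It was 0.70 without FAN1KO cisplatin 1. Under saline they differed by -0.71 ± 0.40, with an adjusted p of 0.76, where 7.83% of all tested genes lay lower without overlap. The FAN1KO saline libraries held only 4 to 11 reads of Trem2 and the wild-type saline libraries 19 to 53. The genotype by cisplatin interaction of Trem2 was 1.91 ± 0.57, with an adjusted p of 0.0706.

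Gpnmb (NCBI Gene 93695, chromosome 6, 49036518 to 49058182) encodes a transmembrane glycoprotein of phagocytes, induced where lysosomes are loaded. It lay at 0.123, 0.178 and 0.116 TPM in wild-type saline kidneys and at 0.0270, 0.242 and 0.105 TPM in FAN1KO saline kidneys. After cisplatin it lay at 0.0467, 0.334 and 0.239 TPM in wild-type kidneys and at 3.74, 2.65 and 1.48 TPM in FAN1KO kidneys. The lowest FAN1KO cisplatin library stood above the highest of the other 9. Reads of Gpnmb numbered 125 to 297 in the FAN1KO cisplatin libraries and 3 to 28 in the others. The mean was 12.7-fold that of wild-type cisplatin kidneys in TPM, which is 1.54 ± 0.23 in log2(TPM + 1), a scale that understates changes of low genes, with an adjusted p of 0.00157 that held in 24 of 24 settings. Against FAN1KO saline the difference was 1.64 ± 0.23, with an adjusted p of 5.75e-04. The effect of cisplatin differed between the genotypes by 1.57 ± 0.32, with an adjusted p of 0.0232, the only interaction called among the 9 tested members, where 5.22% of all tested genes were called higher. That interaction passed in 17 of 23 settings, and it was lost without wild-type saline 1 or 2, FAN1KO saline 1 or 3, wild-type cisplatin 1 or FAN1KO cisplatin 2, with adjusted p-values of 0.0502 to 0.0588.

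Itgam (NCBI Gene 16409, chromosome 7, 128062640 to 128118491) encodes the alpha chain of the complement receptor CR3, which binds ICAM-1 and fragments of C3. Under saline its level was 0.795, 1.00 and 0.303 TPM in wild-type and 0.366, 0.608 and 0.538 TPM in FAN1KO kidneys. Under cisplatin it was 0.411, 2.44 and 1.83 TPM in wild-type and 5.12, 2.16 and 2.06 TPM in FAN1KO kidneys. The FAN1KO cisplatin libraries all exceeded the saline libraries and overlapped the wild-type cisplatin libraries. In FAN1KO the rise was 1.38 ± 0.36 in log2(TPM + 1), with an adjusted p of 0.0122, which passed in 23 of 24 settings, the exception being the fit without FAN1KO cisplatin library 1 (1.05, adjusted p = 0.0534). Between the genotypes under cisplatin the difference was 0.70 ± 0.36, with an adjusted p of 0.17.

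The surface marker and the scavenger receptors did not pass the test in the 12-library fit. Adgre1 (NCBI Gene 13733, chromosome 17, 57358581 to 57483529, overlapping Gm18069 and Gm20243) encodes F4/80, the adhesion receptor by which mouse macrophages are stained. It measured 1.07, 2.27 and 0.689 TPM in wild-type saline, 0.443, 1.63 and 2.37 in FAN1KO saline, 0.747, 2.23 and 1.42 in wild-type cisplatin and 4.86, 1.52 and 1.25 in FAN1KO cisplatin kidneys. Apart from FAN1KO cisplatin library 1, no library exceeded 2.37 TPM, and the groups overlapped in every comparison. Cisplatin against saline in FAN1KO gave 0.46 ± 0.44 in log2(TPM + 1), with an adjusted p of 0.42 and a 95% interval of -0.50 to 1.43.

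Mrc1 (NCBI Gene 17533, chromosome 2, 14229414 to 14332023, the host gene of Mir511) encodes the mannose receptor CD206, which takes up glycoproteins. Its levels were 1.69, 1.37 and 0.469 TPM in wild-type saline, 0.251, 0.905 and 0.639 in FAN1KO saline, 0.545, 3.29 and 2.49 in wild-type cisplatin and 5.61, 1.06 and 1.40 in FAN1KO cisplatin kidneys. FAN1KO libraries after cisplatin lay above those after saline without overlap, by 1.02 ± 0.48 in log2(TPM + 1), with an adjusted p of 0.12. With Y-linked RNA as a covariate the difference was 1.05 and passed in limma's test, with an adjusted p of 0.0270, the only 1 of 24 settings in which it did. That fit called 7919 of 14972 genes higher in this comparison, in place of 5229. Under cisplatin the genotypes differed by 0.16 ± 0.48, with an adjusted p of 0.83, and the sign turned to -0.36 without FAN1KO cisplatin library 1 and to -0.28 without wild-type cisplatin library 1. Cd163 (NCBI Gene 93671, chromosome 6, 124304636 to 124330529, overlapping Gm52877), the receptor for haemoglobin bound to haptoglobin, stayed between 0.0712 and 0.594 TPM. Its highest library was wild-type saline 2 at 0.594 TPM, followed by FAN1KO cisplatin 1 at 0.521 TPM, and its groups overlapped in all 4 comparisons, with exact permutation p-values of 0.3 to 0.9.

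Csf1r (NCBI Gene 12978, overlapping Mir6983 and Gm52352) encodes the receptor for the growth factors CSF-1 and IL-34. Saline libraries held 44.5, 37.6 and 30.8 TPM in wild-type and 19.2, 43.1 and 17.1 TPM in FAN1KO kidneys. Cisplatin libraries held 25.5, 39.4 and 35.5 TPM in wild-type and 33.4, 23.7 and 21.9 TPM in FAN1KO kidneys. The highest library was a wild-type saline kidney and the lowest a FAN1KO saline kidney, and all groups overlapped. FAN1KO against wild-type under cisplatin gave -0.34 ± 0.32 in log2(TPM + 1), with an adjusted p of 0.47 and a 95% interval of -1.04 to 0.36. Cisplatin against saline in FAN1KO gave 0.09 ± 0.32, with an adjusted p of 0.84 and a 95% interval of -0.61 to 0.79, and the sign turned to -0.33 under median-ratio scaling.

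**Figure D2:**
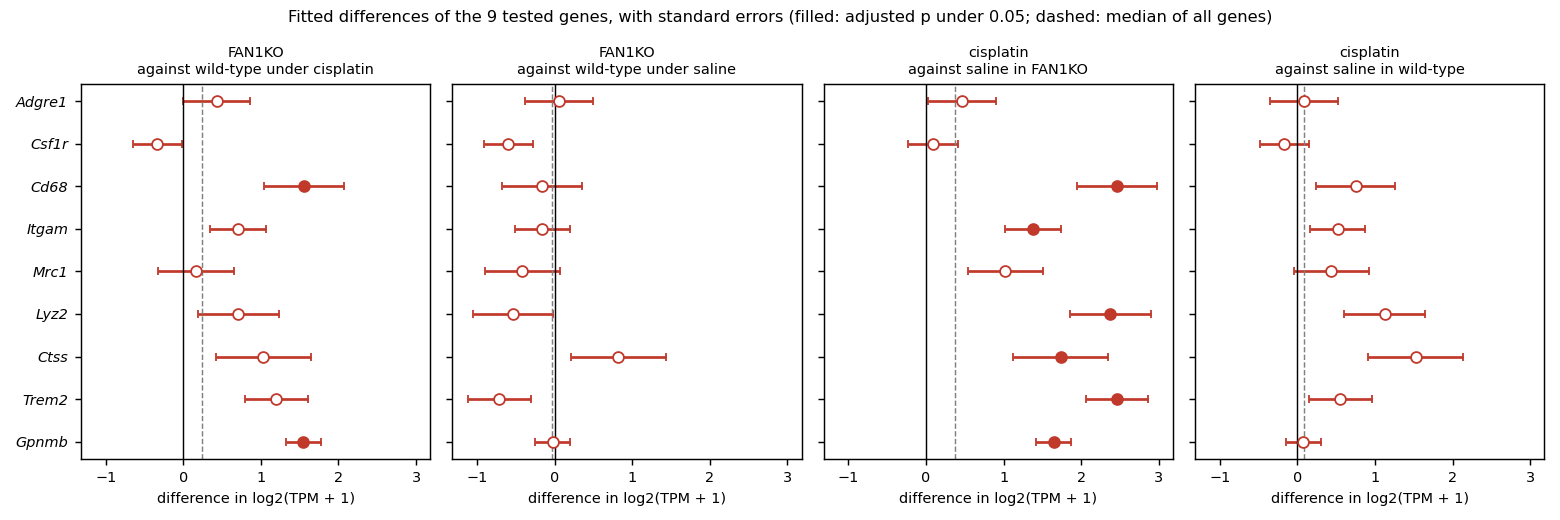
Fitted difference in log2(TPM + 1) with its standard error for the 9 tested macrophage genes in 4 comparisons, where filled points have an adjusted p under 0.05 and the dashed line marks the median of all tested genes. Filled points number 2 for FAN1KO against wild-type under cisplatin, 6 for cisplatin against saline in FAN1KO and 0 in the other two.

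In both contrasts that involve the FAN1KO cisplatin kidneys, the middle of the tested members lay above that of all genes. The median difference of the 9 was 0.71 against 0.24 for all genes between the genotypes under cisplatin, and 1.64 against 0.37 for cisplatin in FAN1KO. Under median-ratio scaling the first was 0.52 and the second 1.32, against -0.01 for all genes in both. In wild-type kidneys the median for cisplatin was 0.52 against 0.08. Between the genotypes under saline it was -0.16 against -0.04. The comparisons share libraries, so these values do not stand for independent evidence. Groups did not overlap for 7 members in FAN1KO, all higher with cisplatin, where 47.4% of all tested genes lay higher without overlap, and for 3 between the genotypes under cisplatin, where 35.7% did. With 3 libraries against 3 the exact permutation test cannot give a p below 0.1.

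A single library of each cisplatin group set the upper end for the whole gene set. FAN1KO cisplatin library 1 was the highest of its group for 10 of 10 members, where it was the highest for 63.9% of all tested genes. Wild-type cisplatin library 2 was the highest of its group for 10 of 10, against 44.6% of all tested genes. At the other end, the library with Y-linked RNA was the lowest of its group for 9 of 10 members in wild-type saline, 7 in FAN1KO saline, 10 in wild-type cisplatin and 7 in FAN1KO cisplatin kidneys, where it was the lowest for 68.4%, 69.8%, 69.7% and 65.7% of all tested genes. The part of that difference between libraries in the results was not tested beyond leaving the 4 libraries out and a fit with Y-linked RNA as a covariate.

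Without these 4 libraries, cisplatin and saline no longer overlapped for most members in wild-type kidneys. Cd68, Itgam, Mrc1, Lyz2, Ctss, Trem2 and Gpnmb, 7 of the 9 tested, were higher in both wild-type cisplatin libraries than in both wild-type saline libraries, where 39.5% of all tested genes were. Mean Cd68 was 11.1 TPM against 5.35 TPM, mean Lyz2 91.9 against 32.3 and mean Ctss 28.9 against 8.19, with 2 kidneys in each mean. The same 7 genes did not overlap in FAN1KO kidneys, where 62.3% of all tested genes were higher. In the fit of these 8 libraries 0 members were called in wild-type kidneys, 6 in FAN1KO and 2 between the genotypes under cisplatin. Of all 14972 tested genes, that fit called 60, 6647 and 4328 higher in the same order. With all 12 libraries and Y-linked RNA as a covariate, Itgam, Ctss and Trem2 joined Cd68 and Gpnmb between the genotypes under cisplatin. The covariate fit called 6035 of 14972 genes higher in that comparison, in place of 2931. Under saline and without Y-linked RNA, both FAN1KO libraries lay below both wild-type libraries for Itgam, Mrc1, Lyz2 and Trem2, 4 of 9, where 29.7% of all tested genes did, and above them for Ctss, where 19.8% did. Under cisplatin the FAN1KO libraries lay above for Cd68, Trem2 and Gpnmb, where 54.3% did, and below for Csf1r, where 17.2% did.

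Ratios to Adgre1 within a library do not depend on how libraries were scaled, and they were compared between the groups. Adgre1, the denominator of every ratio, rested on 42 to 330 reads a library. In FAN1KO cisplatin libraries 1, 2 and 3 it lay at 4.86, 1.52 and 1.25 TPM, and 10 of 10 members were highest in library 1. Dividing by Adgre1 spreads genes that do not follow it, so more of them overlap. In TPM, 35.7% of all tested genes lay higher without overlap between the genotypes under cisplatin. Setting members beside the shares of all genes below therefore favours the members. The log2 ratio of Gpnmb to Adgre1 was on average -3.12 in wild-type and -3.76 in FAN1KO kidneys under saline, and -3.10 and 0.22 under cisplatin, so it was 3.32 higher in FAN1KO than in wild-type under cisplatin. That value rests on 6 to 28 Gpnmb reads in the wild-type cisplatin libraries, and it was 1.12 from log2(TPM + 1). The ratio of Cd68 was 3.52 in FAN1KO cisplatin against 2.47 in wild-type cisplatin kidneys, and that of Trem2 1.46 against 0.55. For these 3 genes the FAN1KO libraries did not overlap the wild-type libraries, where the ratio to Adgre1 of 2.61% of all tested genes lay higher without overlap. The exact permutation p was 0.1 each, the smallest possible, so this test could not pass 0.05. Csf1r lay the other way relative to Adgre1, with a mean log2 ratio of 3.62 in FAN1KO cisplatin against 4.63 in wild-type cisplatin kidneys, again without overlap, where 5.32% of all tested genes lay lower, and with an exact permutation p of 0.1. The ratio of Lyz2 was 5.52 against 5.45 and differed by less than its spread. Within FAN1KO kidneys, the ratios of Cd68, Itgam, Mrc1, Lyz2, Ctss, Trem2 and Gpnmb were higher after cisplatin than after saline without overlap. The differences were 1.98, 1.71, 1.13, 1.63, 1.02, 3.78 and 3.98 in that order, where 3.11% of all tested genes lay higher. The ratios of Csf1r and Cd163 overlapped there. FAN1KO saline libraries held 4 to 11 reads of Trem2 and 3 to 22 of Gpnmb. Within wild-type kidneys, the ratios of Cd68, Lyz2 and Ctss were higher after cisplatin than after saline without overlap, by 0.71, 0.99 and 1.51, where 1.7% of all tested genes were. The Ctss ratio was also higher in FAN1KO than in wild-type kidneys under saline, by 0.92, and the Mrc1 ratio lower, by -0.98, both without overlap, where 0.822% of all tested genes lay higher and 1.4% lower.

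**Figure D3:**
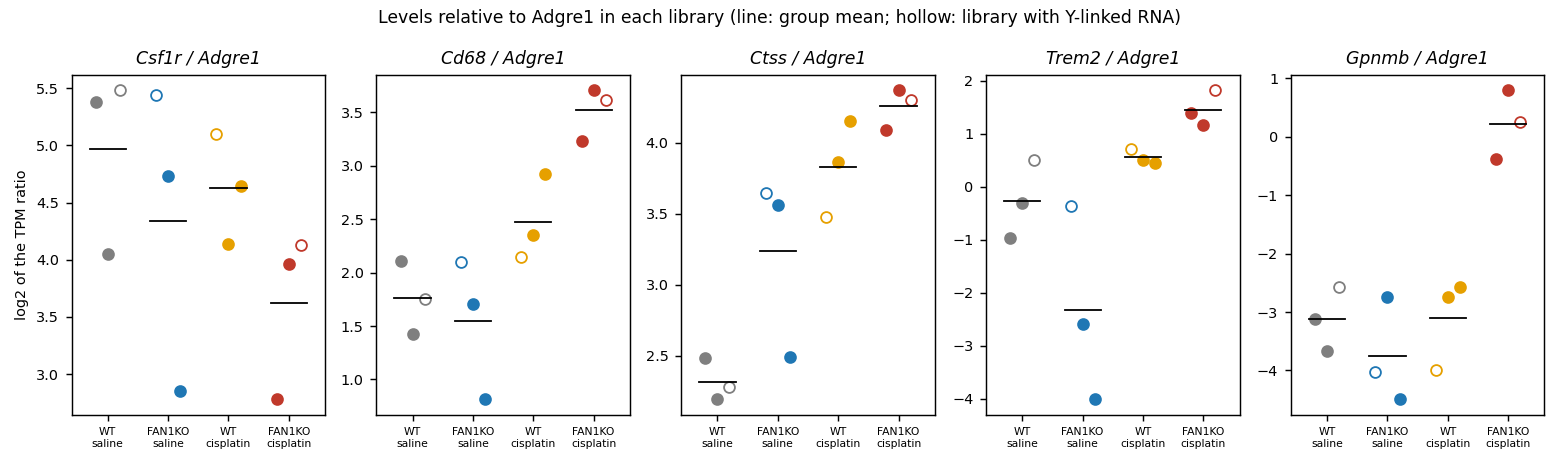
Log2 of the TPM ratio of Csf1r, Cd68, Ctss, Trem2 and Gpnmb to Adgre1 in each of the 12 libraries by group, with a line at the group mean and hollow points for libraries with Y-linked RNA. The Gpnmb ratio has a group mean of 0.22 in FAN1KO cisplatin kidneys and of -3.76 to -3.10 in the other groups, and the Csf1r ratio has its lowest group mean, 3.62, in FAN1KO cisplatin kidneys.

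Across the 12 libraries Itgam followed the average of the tested members most closely, with a root mean square difference of 0.13 in centred log2(TPM + 1), and 0 genes outside the set came closer. Each tested member is itself part of that average and an outside gene is not. The ranking of members against outside genes therefore favours the members. Csf1r lay farthest, at 0.75, with 11247 other tested genes closer to that average. Outside the set, the 4 genes whose profile was most like the average were Ncf1 at 0.14 and Ms4a6d, Ncf4 and Ciita at 0.17. Ncf1 and Ncf4 encode subunits of the phagocyte NADPH oxidase, and Ciita the coactivator of class II genes. Such likeness is a description, since the 12 points share libraries and scaling.

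Among 13 ligands, co-receptors and substrates of the members, 3 were higher in the cisplatin kidneys of FAN1KO than of wild-type mice and 0 lower. Of all tested genes 19.6% were called higher and 4.37% lower, so the count lay near that share. The list median was 0.81 against 0.24 for all genes. With Y-linked RNA as a covariate 8 of the 13 were higher, a fit in which 6035 of 14972 genes were called higher in place of 2931. In the 8 libraries without Y-linked RNA 5 were, where 4328 of all genes were. Csf1, the growth factor for the Csf1r receptor, measured 2.51, 10.4 and 6.84 TPM in wild-type cisplatin and 40.6, 37.1 and 29.7 TPM in FAN1KO cisplatin kidneys. It was higher by 2.43 ± 0.46 in log2(TPM + 1), with an adjusted p of 0.00545, and the interaction of 2.52 had an adjusted p of 0.0486. Icam1 and C3, whose products are bound by the Itgam receptor, were higher by 1.84 ± 0.32 and 3.03 ± 0.52, with adjusted p-values of 0.00369 and 0.00346. So the ligand rose where its receptor gene Csf1r gave -0.34 ± 0.32. Il34, the other ligand of that receptor, differed by 1.38 ± 0.85 (adjusted p = 0.26), and the library with Y-linked RNA was its highest in every group, at 30.8 to 83.7 TPM.

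Tyrobp, the signalling adaptor of TREM2, measured 7.07, 24.0 and 22.5 TPM in wild-type cisplatin and 69.2, 29.8 and 27.6 TPM in FAN1KO cisplatin kidneys, without overlap, with a difference of 1.24 ± 0.47 and an adjusted p of 0.0805. Apoe, a lipid carrier that TREM2 binds, differed by 1.03 ± 0.77, with an adjusted p of 0.35. Itgb2, the beta chain that pairs with the Itgam product, differed by 0.05 ± 0.54, with an adjusted p of 0.95. Cst3, the secreted inhibitor of cathepsins such as the Ctss product, differed by 0.72 ± 0.26, with an adjusted p of 0.0663. The haptoglobin gene Hp and the haem oxygenase gene Hmox1, which act with Cd163, had adjusted p-values of 0.45 and 0.64. For cisplatin against saline in FAN1KO, 7 of the 13 rose and 0 fell, Csf1, Il34, Tyrobp, Icam1, C3, Hp and Cst3, led by C3 at 5.75 ± 0.52. Of all tested genes 34.9% were called higher and 4.9% lower there. Under median-ratio scaling 4 of the 13 rose, where 2333 of 14972 genes were called higher.

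Of 16 lysosomal genes not in the set, 10 were higher in FAN1KO than in wild-type kidneys under cisplatin and 0 lower, with a median of 0.50. Of all tested genes 19.6% were called higher and 4.37% lower there, with a median of 0.24. The count of lysosomal genes was 4 under median-ratio scaling and 5 with the replicate block, where 1389 and 2376 of 14972 genes were called higher. Ctsd, cathepsin D, led with 548, 617 and 641 TPM in wild-type and 2345, 1868 and 1476 TPM in FAN1KO cisplatin kidneys, a difference of 1.63 ± 0.16 with an adjusted p of 2.35e-04. Ctsl and Hexa, a cathepsin and a hexosaminidase subunit, were higher by 1.01 and 0.88. Whole kidney expresses these genes widely, and the cells behind the change were not resolved. Of 9 lipid-associated macrophage genes, 5 were higher, led by Spp1 at 2.84, Plin2 at 2.41 and Lgals3 at 2.37, and 1 was lower, Lpl, lipoprotein lipase, at -2.16, which is named after its value was seen. Spp1 stood at 288 to 1838 TPM in saline kidneys, so its RNA was abundant where Gpnmb stayed below 1 TPM. The lipid-associated list summed to 8379 to 13224 TPM in FAN1KO cisplatin and 1598 to 3456 TPM in wild-type cisplatin kidneys. The 10 macrophage genes summed to only 149 to 348 TPM in FAN1KO cisplatin kidneys. The cells behind the RNA of the lipid-associated list were not resolved.

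Among 10 resident kidney macrophage genes, 9 rose with cisplatin in FAN1KO and 0 fell, with a median of 1.82. Of all tested genes 34.9% were called higher and 4.9% lower there. Between FAN1KO and wild-type kidneys under cisplatin 1 was higher, Cx3cr1, the fractalkine receptor, by 1.57 ± 0.39. In that comparison 19.6% of all tested genes were called higher. In the second comparison 9 of the 10 were higher with Y-linked RNA as a covariate and 4 in the 8 libraries without it. Those 2 fits called 6035 and 4328 of 14972 genes higher there, in place of 2931. In the first comparison, 5 rose under median-ratio scaling, where 2333 of 14972 genes were called higher. C1qa, a complement subunit made by macrophages, measured 9.13, 45.8 and 34.5 TPM in wild-type and 175, 77.5 and 55.8 TPM in FAN1KO cisplatin kidneys, without overlap, with a difference of 1.85 ± 0.63 and an adjusted p of 0.0544. Of 8 genes of recruited monocytes, 4 were tested. Plac8 was higher in FAN1KO than in wild-type kidneys under cisplatin by 1.36 ± 0.34, whereas the chemokine receptor gene Ccr2 and the monocyte surface gene Ly6c2 differed by 0.36 and 0.09, with adjusted p-values of 0.61 and 0.90. With cisplatin in FAN1KO 3 of the 4 rose, Ccr2 among them by 1.35 ± 0.48 with an adjusted p of 0.0450.

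Of the 12 lineage regulators, Spi1, the gene of PU.1, differed by 0.63 ± 0.48 between the genotypes under cisplatin, with an adjusted p of 0.36, and rose by 1.37 ± 0.48 with cisplatin in FAN1KO, with an adjusted p of 0.0437. Runx1 was higher in FAN1KO under cisplatin by 1.30 and Nr1h3, a lipid-sensing nuclear receptor, lower by -0.55, the only 2 of the list called there in the 12-library fit, against 4 higher and 1 lower with Y-linked RNA as a covariate. Among 12 pan-leukocyte and Fc receptor genes, 0 were called between the genotypes under cisplatin by limma over 12 libraries, with 3 at an unadjusted p under 0.05. The count was 0 with voom, 5 in the 8 libraries without Y-linked RNA and 7 with Y-linked RNA as a covariate. With cisplatin in FAN1KO 8 rose and 1 fell, where 34.9% of all tested genes were called higher and 4.9% lower. Ptprc, which encodes CD45 on all leukocytes, measured 1.59, 3.89 and 4.30 TPM in wild-type and 6.99, 4.04 and 3.14 TPM in FAN1KO cisplatin kidneys, and the groups overlapped. Of 14 scavenger and efferocytosis genes 9 were tested, and Cd14, the endotoxin co-receptor, was the 1 called between the genotypes under cisplatin, by 1.73 ± 0.53, against 3 higher and 1 lower with Y-linked RNA as a covariate. In this comparison the covariate fit called 6035 of 14972 genes higher and 1288 lower, in place of 2931 and 654. The fit of the 8 libraries called 4328 higher and 1162 lower.

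Markers of other cells in whole kidney moved beside these genes. All 6 tubule injury genes were higher in FAN1KO than in wild-type kidneys under cisplatin, with a median of 2.54. In the same comparison 7 of 10 proximal tubule genes were lower, with a median of -1.02. Of all tested genes 19.6% were called higher and 4.37% lower there. Havcr1, the kidney injury molecule of the tubule, held 373, 243 and 679 TPM in FAN1KO cisplatin libraries 1, 2 and 3. The library with the most Havcr1 was thus not the one with the most RNA of the 10 macrophage genes. The summed level of the 10 macrophage genes was 149 to 348 TPM in FAN1KO cisplatin and 64.0 to 199 TPM in wild-type cisplatin kidneys. Of 12 neutrophil genes only S100a8 and S100a9 passed the filter, and the list summed to 7.98 to 11.9 TPM in FAN1KO cisplatin kidneys, above the 2.00 to 6.69 TPM of wild-type cisplatin kidneys. Its sum was 7.51 to 9.69 TPM in wild-type and 0.921 to 7.69 TPM in FAN1KO kidneys under saline. Between the genotypes under cisplatin limma and voom called 0, with 0 at an unadjusted p under 0.05. The 12 lymphocyte genes summed to 17.1 to 62.8 TPM in FAN1KO cisplatin and 29.7 to 48.0 TPM in wild-type cisplatin kidneys, and 1 of 9 tested was called, Cd8a, by 0.87, and 3 with Y-linked RNA as a covariate. That covariate fit called 6035 of 14972 genes higher in place of 2931. Of 3 dendritic cell genes tested 1 was called, Cd209a, by 1.38, and 0 under median-ratio scaling, with voom or in the 8 libraries without Y-linked RNA, and of 4 lymphatic endothelial genes limma and voom called 0, with 1 at an unadjusted p under 0.05. Red cell genes fell in 5 of 5, with a median of -7.48. Their part in the macrophage gene levels was not tested.

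**Figure D4:**
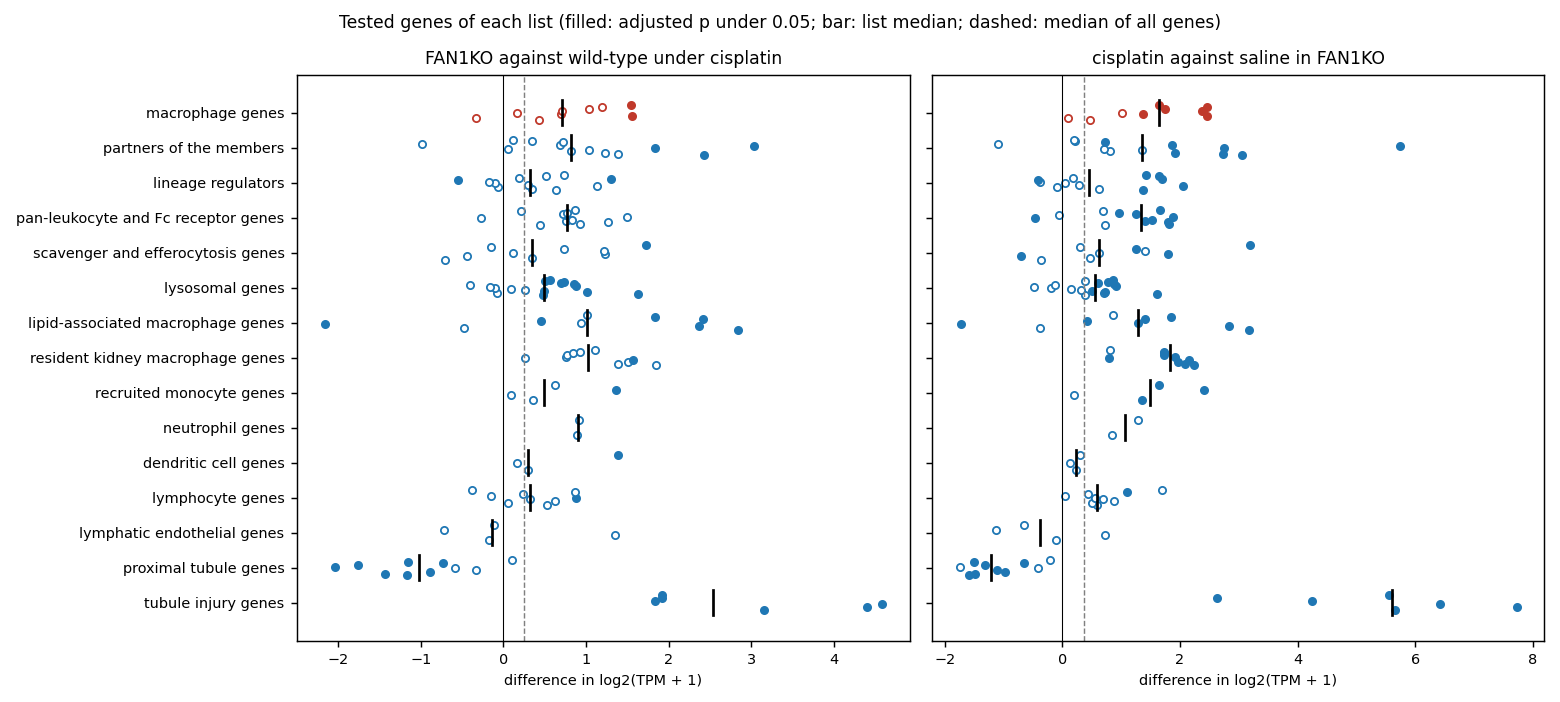
Difference in log2(TPM + 1) for each tested gene of the macrophage set (red) and of 14 further lists (blue, red cell genes left out because they lie far below the axis), for FAN1KO against wild-type under cisplatin and for cisplatin against saline in FAN1KO. Filled points have an adjusted p under 0.05, black bars mark the list median and the dashed line the median of all genes, and the list medians run from -1.02 for proximal tubule genes to 2.54 for tubule injury genes in the first comparison.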

How the data were processed

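RNA of 12 whole kidneys, 3 in each of 4 groups named in the labels, was sequenced by the authors. The deposited table gives TPM per NCBI Gene number, and every library sums to 1000000. The submitters' processing notes name mm10 and limma, and the aligner, counter and annotation are not given in the sources used here. Of the 27179 gene numbers, 25275 were matched to RefSeq symbols (GRCm38.p6). Differences were tested with limma 3.58.1 in R 4.3.3 on log2(TPM + 1), with 4 group means over all 12 libraries, a mean-variance trend and Benjamini-Hochberg adjustment over 14972 genes with at least 1 TPM in at least 3 libraries, at 0.05. The script was tested on simulated data. Single genes and ratios were also compared by two-sided exact permutation tests (scipy 1.17.1). Whole reads per gene were inferred from the steps in the deposited TPM and came out whole, within 0.0200 reads, for 22555 of 22557 genes. They were used for depth and, with voom, as an alternative. The labels number the samples of a group without naming the animals, so p-values measure the spread between these samples.

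The members, the 15 gene lists and the tests were chosen with earlier results of these data known. All 10 members are named. From each list the called genes with the 3 largest differences in FAN1KO against wild-type under cisplatin and the list's first 2 genes may be named, and all 13 partners of the members. The 5 genes with the most similar profile (1 is not reported here), Fan1, Hba-a1, Havcr1 and 4 Y-linked genes complete the rule. Alternatives changed the pseudocount (to 0.1), the filter, the libraries in the fit, the scaling, the mean-variance trend and the covariates. Those that left out the libraries with Y-linked RNA or used voom were added after seeing the data.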

Additional observations from a re-analysis of the deposited data

Results flagged for a closer look

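The effect of cisplatin on Gpnmb differed between the genotypes, with an interaction of 1.57 ± 0.32 in log2(TPM + 1) and an adjusted p of 0.0232 in limma's test. Gpnmb passed the filter on low values only through the 3 FAN1KO cisplatin libraries. Over 23 settings the value ranged from 1.35 to 4.58 and the adjusted p from 0.00203 to 0.0588, and it passed the threshold in 17.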

How the results depend on the processing

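Between the genotypes under cisplatin, 2 members were called, against 1 with a pseudocount of 0.1, median-ratio scaling, no filter, the 6 libraries compared alone, no mean-variance trend, genes of the mitochondrial genome removed or the replicate block, 5 with the Y-linked covariate, and 1 to 2 when 1 library was left out. The covariate fit called 6035 of 14972 genes higher there in place of 2931. Over all settings 1539 to 7323 genes were called either way. For the interaction the covariate gave 3 in place of 1, where it called 4088 of 14972 genes higher in place of 782. Leaving out 1 library gave 0 to 1 for the interaction, and over all settings 269 to 4734 genes were called either way. For cisplatin in FAN1KO the count lay between 4 and 7 in every setting, where 3622 to 9141 genes were called either way. In the other comparisons the count of members was 0 in every setting. The replicate block gave 1, 0, 5, 0 and 1 calls in the 5 comparisons. Deviations of same-numbered libraries correlated on average at 0.018 and of others at 0.015. Same-numbered pairs ranged from -0.61 to 0.76, and 10 of 18 lay over 0.1. With that spread the averages cannot tell whether the numbers pair the kidneys. Differences between groups in the log2 ratio to Adgre1 were smaller with a pseudocount of 1 for the following genes. For cisplatin against saline in FAN1KO they were 0.92 in place of 1.71 for Itgam and 0.56 in place of 1.13 for Mrc1. They were 2.00 in place of 3.78 for Trem2 and 1.18 in place of 3.98 for Gpnmb. The exact permutation p of Mrc1 was 0.2 in place of 0.1. Between the genotypes under cisplatin the difference of Gpnmb was 1.12 in place of 3.32.
Signs that turned belonged to differences that were not called. Median-ratio scaling gave -0.0035 for Mrc1 between the genotypes under cisplatin, -0.33 for Csf1r with cisplatin in FAN1KO, and interactions of -0.065 for Csf1r and -0.12 for Ctss, and removing mitochondrial genes gave -0.041 for Csf1r with cisplatin in FAN1KO. The 8 libraries without Y-linked RNA, a setting chosen after seeing the data, gave -0.070 for Mrc1 under cisplatin, 0.027 for Gpnmb under saline and an interaction of -0.12 for Ctss. With median-ratio scaling as well they gave -0.25 for Mrc1 and -0.010 for Lyz2 under cisplatin, 0.031 for Gpnmb under saline, -0.35 for Csf1r with cisplatin in FAN1KO, and interactions of -0.12 for Csf1r and -0.41 for Ctss. Leaving out 1 library gave, between the genotypes under cisplatin, -0.0037 to 0.69 for Adgre1 and -0.36 to 0.48 for Mrc1, and under saline -0.21 to 0.40 for Adgre1, -0.47 to 0.17 for Cd68 and -0.10 to 0.041 for Gpnmb. For cisplatin it gave -0.15 to 0.49 for Csf1r in FAN1KO, and -0.13 to 0.35 for Adgre1 and -0.30 to 0.0059 for Csf1r in wild-type kidneys. For the interaction it gave -0.057 to 0.64 for Adgre1 and -0.34 to 0.58 for Ctss.
The cause of these changes was not tested. Depth limits Gpnmb, Trem2 and Cd163, which rest on a few reads in some libraries.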
